A study of Mus musculus with 1279 samples.

Results

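Bone morphogenetic proteins (BMPs) and activins are secreted dimers of the TGF-beta superfamily. They bind pairs of type I and type II serine/threonine kinase receptors, which phosphorylate SMAD proteins that enter the nucleus. Their reach is set outside the cell by antagonists that bind the ligand before it meets a receptor. In the heart this signalling is known for its part in the formation of valves and septa and in the state of fibroblasts and vessel wall cells. The 9 genes described here were 4 ligands (Bmp2, Bmp4, Bmp6 and Gdf10), 2 BMP antagonists (Grem1 and Nbl1) and 3 genes of the follistatin group (Fst, Fstl3 and Fstl1). They were chosen by name, as 9 of the 46517 genes in the count table, and read across the cluster and strain labels of single cells from the mouse heart.

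The cells came from adult male mice of 10 to 20 weeks, were stripped of CD31+ cells during sorting and were sequenced as full-length cDNA with Smart-seq2, a plate method without molecular identifiers. C57BL6 cells (45.4% of the 1279) were sorted with antibodies to PDGFRα or PDGFRβ and lay on 3 plates, 1 of which gave 1 cell. The strains PdgfrbGFP (28.5% of cells), Cspg4dsRED (12.7%) and Acta2GFP (13.4%) carry fluorescent transgenes under regulatory sequence of Pdgfrb, Cspg4 and Acta2, so each strain sampled the cells in which its transgene was read. Each of these strains was on 1 plate, and elastase was added to the dissociation of Acta2GFP hearts. Strain, sort and plate therefore cannot be told apart, and no label names an animal. All mice were on a C57Bl6/J background and no mouse was treated. Clusters 1 to 8, made by the study from the same counts, held 5.47, 17.1, 8.76, 18.2, 22.8, 3.05, 9.23 and 15.3% of the cells.

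Clusters 1 to 5 (926 cells) are called fibroblasts and clusters 6 to 8 (353 cells) mural cells, the smooth muscle cells and pericytes of vessel walls. Summed CPM (a gene's counts scaled to a library of 1e6 counts) of 5 fibroblast markers averaged 11878 to 14070 over strains in clusters 1 to 5, against 546 in cluster 7 and 1716 in cluster 8. Cluster 1 stood out by 5 valve fibroblast markers (7001 CPM, at most 967 on average elsewhere) and cluster 8 by 4 pericyte markers (17298 CPM). In cluster 7 the sum of 4 smooth muscle markers was 12725 CPM. Cluster 6 had these smooth muscle markers at 11450 CPM, with a strain range that overlapped with cluster 7. Its 3 C57BL6 cells had no read of Sost, which reached 527 CPM in the 33 Cspg4dsRED cells, and held fibroblast markers at 12491 CPM against 3108 and 3223 in the other strains. Values of cluster 6 are therefore given strain by strain. Its 5 mural markers summed to 781 CPM in C57BL6, 2446 in Cspg4dsRED and 1852 in Acta2GFP, below its fibroblast markers in each strain. The mural markers averaged 7523 CPM in cluster 7, 9440 in cluster 8 and at most 351 in clusters 1 to 5. The 15 Acta2GFP cells of cluster 8 also stood apart, with fibroblast markers at 3334 CPM (960 to 1370 in the other strains), smooth muscle markers at 4033 CPM (201.1 to 1170) and pericyte markers at 6942 CPM (18865 to 23596). Mesothelial markers summed to at most 0.0836 CPM in any cluster and strain.

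Levels are given as CPM of the counts summed per cluster and strain, for sums of 3 cells or more. Single cells had 46268 to 1302397 counts. The 9 genes differed widely in how often they were seen at all. Fstl1 had a read in 99.6% of cells, Nbl1 in 79.7%, Bmp4 in 62.5%, Fstl3 in 46.1%, Gdf10 in 21.6%, Fst in 15.3%, Bmp6 in 14.2% and Bmp2 in 12.98%. Grem1 had 1 read in 1 cell. The reads of the rarer genes were concentrated, since 50% of all Bmp2 reads came from 15 cells, of Gdf10 reads from 17, of Bmp6 reads from 18 and of Fst reads from 22. The corresponding numbers were 59 cells for Fstl3 and 89 for Bmp4. No cell held more than 1 read per exon base of any of the 9 genes, the highest being 0.953 for Nbl1.

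**Figure D1:**
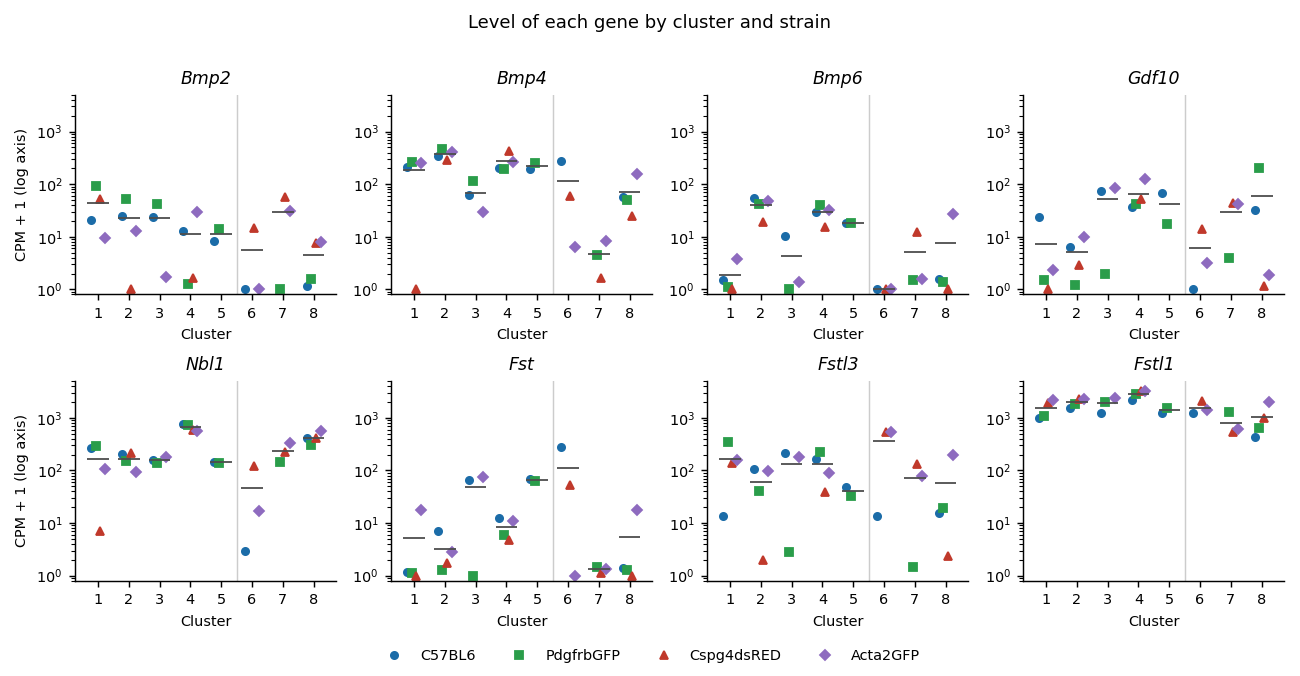
Level of 8 genes in each cluster, as CPM + 1 on a log axis, with 1 point per strain (sums of at least 3 cells) and a line at the mean over strains. Bmp4 is above 190 CPM in every sum of clusters 2, 4 and 5 and under 10 CPM in cluster 7, Nbl1 is highest in cluster 4, and Fstl1 is above 400 CPM in every sum.

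Sequence before the start is shown for 4 members, Bmp4 and Fstl1 because they were the 2 that passed the test between fibroblasts and mural cells, and the antagonists Nbl1 and Grem1 because one was read in most cells and the other in almost none. Each run is the 250 bases before the RefSeq start of the gene on GRCm38.p6, on the strand of the gene. The RefSeq starts of Fstl1 and Nbl1 lie inside the GENCODE gene bounds given for the levels, so part of these runs falls within the GENCODE gene. RefSeq promoter entries were found for 7 of the 9 genes, the exceptions being Bmp2 and Fst. Capitals mark matches to the motifs searched on both strands, which were GGCGCC (bound by BMP-activated SMADs), GTCTAGAC (the palindromic SMAD element), TATAAA and CACGTG (an E-box).
Bmp4, chr14:46390670-46390919, minus strand: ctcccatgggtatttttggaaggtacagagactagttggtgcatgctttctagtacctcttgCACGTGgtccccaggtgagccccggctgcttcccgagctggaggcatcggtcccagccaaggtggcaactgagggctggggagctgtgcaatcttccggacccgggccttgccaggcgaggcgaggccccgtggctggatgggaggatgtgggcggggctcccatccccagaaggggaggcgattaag
Fstl1, chr16:37776805-37777054, plus strand: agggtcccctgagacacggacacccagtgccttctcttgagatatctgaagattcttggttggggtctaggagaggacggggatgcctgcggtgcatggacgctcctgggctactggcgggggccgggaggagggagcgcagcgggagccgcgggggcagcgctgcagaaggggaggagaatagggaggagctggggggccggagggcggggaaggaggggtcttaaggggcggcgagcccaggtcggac
Nbl1, chr4:139092971-139093220, minus strand: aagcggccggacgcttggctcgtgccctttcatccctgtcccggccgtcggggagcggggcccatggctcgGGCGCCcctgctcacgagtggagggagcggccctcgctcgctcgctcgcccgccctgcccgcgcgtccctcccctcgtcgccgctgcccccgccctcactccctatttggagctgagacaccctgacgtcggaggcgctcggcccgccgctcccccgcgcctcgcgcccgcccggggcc
Grem1, chr2:113758649-113758898, minus strand: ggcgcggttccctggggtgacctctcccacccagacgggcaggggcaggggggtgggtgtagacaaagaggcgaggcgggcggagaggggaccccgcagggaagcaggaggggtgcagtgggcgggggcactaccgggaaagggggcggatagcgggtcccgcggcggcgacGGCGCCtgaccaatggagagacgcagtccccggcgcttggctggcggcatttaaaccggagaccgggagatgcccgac
GGCGCC was present once in Nbl1 and once in Grem1 and in 9.59% of all 32851 promoter windows of this length, and CACGTG once in Bmp4 and in 6.02% of windows. Neither GTCTAGAC (0.167% of windows) nor TATAAA (12.4%) was found in these 4 runs, and Fstl1 held none of the motifs. Of the members not printed, Bmp6 held CACGTG and Fstl3 held TATAAA once each. A match describes the letters only.

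Of the ligands, Bmp4 (chr14:46383520-46390669, GRCm38 with GENCODE M21 genes, as for all members), a mesenchymal BMP needed for outflow tract and valve formation, was the most widely read. In cluster 2 it stood at 339 CPM in C57BL6, 462 in PdgfrbGFP, 285.6 in Cspg4dsRED and 400.5 for Acta2GFP (mean 372 ± 76.5, SD, n = 4). Cluster 4 had 202.1, 196.04, 424 and 259.9 CPM in the same order, and cluster 5 had 195.1 in C57BL6 and 255.99 in PdgfrbGFP. The range of cluster 4 overlapped with those of clusters 2 and 5, whereas the lowest strain of cluster 2 lay above the highest of cluster 5. That lowest sum, from the 8 Cspg4dsRED cells, was at 195.5 CPM without the cell with the most reads, within the range of cluster 5. The overlap of cluster 4 with cluster 2 came from the 424 CPM of Cspg4dsRED, which was at 229.8 CPM without 1 of its 13 cells. Cluster 3 was lower, with 61.3 CPM in C57BL6, 111.5 in PdgfrbGFP and 28.2 in Acta2GFP, and 95.9% of the PdgfrbGFP reads there came from 1 of 7 cells (5.16 CPM without it). In cluster 1 Bmp4 was at 213.1, 264.6 and 252.8 CPM in C57BL6, PdgfrbGFP and Acta2GFP, but at 0 in Cspg4dsRED, which rests on 3 cells.

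Among mural cells Bmp4 had its lowest mean in cluster 7, with 3.43 CPM in PdgfrbGFP, 0.614 in Cspg4dsRED and 7.36 in Acta2GFP. Cluster 8 had 55.9 CPM in C57BL6, 48.7 in PdgfrbGFP, 23.7 in Cspg4dsRED and 153.8 for Acta2GFP. Single cells carried some of these sums: without the cell with the most reads, C57BL6 was at 4.57 CPM, Cspg4dsRED at 0.919, PdgfrbGFP at 25.8 and Acta2GFP at 108.6. Bmp4 had a read in 14 of the 15 Acta2GFP cells and in 46.2% of the PdgfrbGFP cells. These shares were not adjusted for depth, and the median counts per cell there were 350011 in Acta2GFP and 143791 in PdgfrbGFP. In cluster 6 the 278.2 CPM of C57BL6 came to 98.6% from 1 of 3 cells, beside 58.2 CPM in Cspg4dsRED and 5.40 in Acta2GFP. By mean, the clusters ran 2, 4, 5, 1, 6, 8, 3 and 7, and only the last step, from cluster 3 to cluster 7, had strain ranges that did not overlap.

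Summed over fibroblasts, Bmp4 stood at 212.3 CPM in C57BL6, 280.2 in PdgfrbGFP, 319.6 in Cspg4dsRED and 280.6 for Acta2GFP. Summed over mural cells it stood at 80.6, 44.2, 22.5 and 55.01 CPM. Every strain was higher in fibroblasts and the ranges did not overlap. The log2 fold change was 2.42 (SE 0.39, adjusted p = 0.00558, edgeR quasi-likelihood test over 15117 genes). Bmp4 passed in 9 of 10 alternative fits, the exception being the fit without PdgfrbGFP (log2 fold change 2.30, adjusted p = 0.0565). Without clusters 1 and 6, which removes the 3 C57BL6 cells that stood apart, it was 2.73 (SE 0.57, adjusted p = 0.0164).

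Fstl1 (chr16:37776873-37836514), a secreted glycoprotein of the follistatin family that is known from the epicardium and injured heart, was the other member that passed. It stood at 1554, 1899, 2617 and 2593 CPM in fibroblasts, with strains in the order used for Bmp4, and at 551, 716, 1105 and 1134 CPM in mural cells. All 4 strains were higher in fibroblasts, without overlap, by a log2 fold change of 1.29 (SE 0.30, adjusted p = 0.0303, edgeR). This call was lost in each of the 4 fits that left out 1 strain (adjusted p 0.0817 to 0.129, log2 fold change 1.24 to 1.34) and kept in the other 6 alternatives.

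Between fibroblasts and mural cells, 2 of the 8 members tested passed in edgeR, both higher in fibroblasts, where 5.93% of all genes passed and 3.47% passed as higher in fibroblasts. At an unadjusted p under 0.05 there were 3 of 8 (17% of all genes), with DESeq2 3 of 8 (13.2%) and with limma 2 of 8 (9.22%). The member added in these counts was Bmp6 (chr13:38345107-38500302), an iron-linked BMP also made by endothelium. It stood at 27.3, 26.1, 13.4 and 26.2 CPM in fibroblasts and at 0.463, 0.389, 5.76 and 8.83 CPM in mural cells, in the order of strains above. The ranges did not overlap, yet the fit gave a log2 fold change of 2.62 with an SE of 1.06 and an adjusted p of 0.227 (0.0453 to 0.473 over the alternatives). The other 5 members had log2 fold changes from -1.01 (Gdf10) to 0.59 (Fst) and adjusted p from 0.599 to 0.993, and their strains did not all point one way. Grem1 did not pass the filter on low counts. Markers of other cells differed between clusters of the 2 sides: 7 endothelial markers summed to means of 547 CPM in cluster 8, 295.5 in cluster 7 and 199.9 in cluster 6, and of 88.98 to 217.5 CPM in clusters 1 to 5. The sum of 9 cardiomyocyte markers ranged from 1335 to 2016 CPM over the strains of cluster 7, stood at 6.86, 759 and 1537 CPM in cluster 6, and reached at most 269.9 in clusters 1 to 5. This list holds Actc1, which the study reports as enriched in some smooth muscle cells of heart and lung. The sum is therefore not a measure of cardiomyocyte material alone. The part of either list in the result was not tested.

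**Figure D2:**
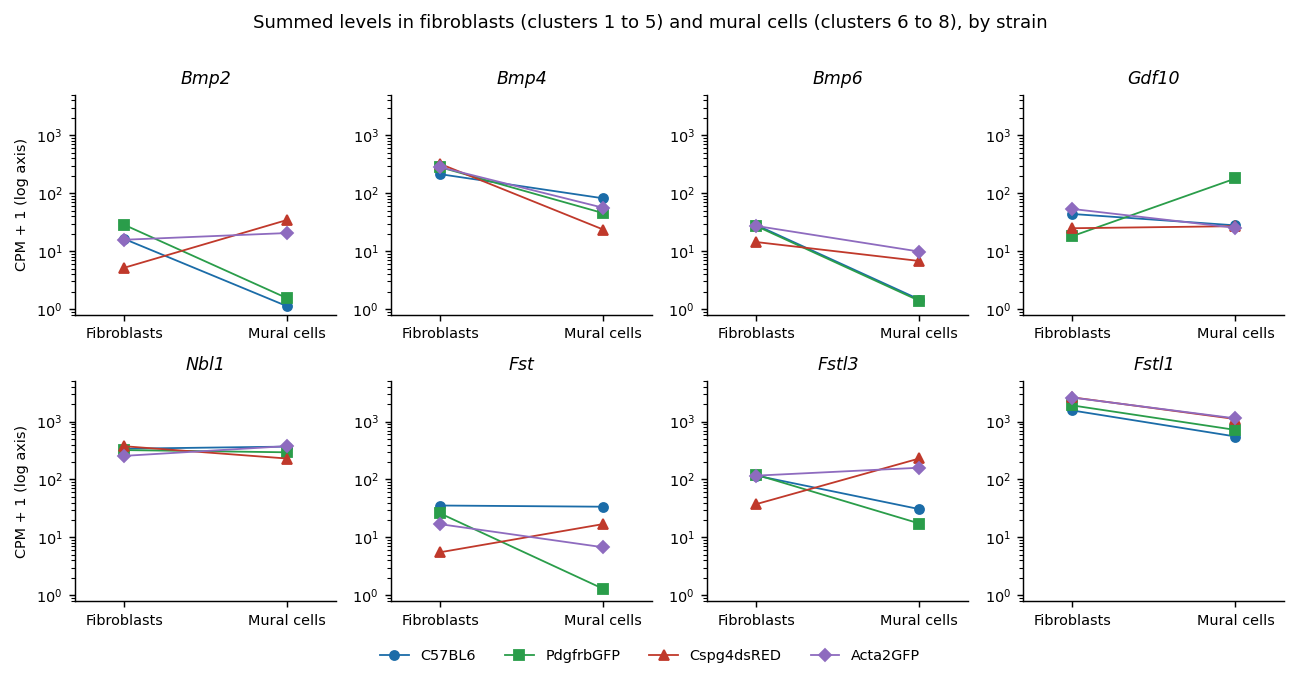
CPM + 1 on a log axis for 8 genes, summed per strain over clusters 1 to 5 (left) and clusters 6 to 8 (right), with a line joining the sums of 1 strain. All 4 lines fall for Bmp4, Bmp6 and Fstl1, whereas those of Bmp2, Gdf10, Nbl1, Fst and Fstl3 cross.

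The remaining ligands were sparse. Bmp6 was read mainly in clusters 2 and 4, at 53.3 and 28.3 CPM in C57BL6, 41.8 and 39.8 in PdgfrbGFP, 17.7 and 14.5 in Cspg4dsRED and 46.8 and 30.6 for Acta2GFP. Without the cell with the most reads, cluster 2 was at 46.4, 25.3, 4.88 and 24.7 CPM in the same order of strains. Cluster 4 was then at 23.5, 23.2, 5.93 and 19.96 CPM. Cluster 5 had 17.6 and 17.3 CPM in its 2 strains. Cluster 6 had no Bmp6 read in 39 cells. The 25.99 CPM of Acta2GFP in cluster 8 came to 98.3% from 1 cell (0.497 CPM without it). In cluster 1 the level was 0.507 CPM in C57BL6, 0.124 in PdgfrbGFP, 0 in Cspg4dsRED and 2.74 for Acta2GFP, against 28.2, 29.4, 14.5 and 32.8 CPM in the sums of clusters 2 to 5.

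Bmp2 (chr2:133552159-133562885), which drives cushion formation at the embryonic atrioventricular canal, reached 93.3 CPM in cluster 1 of PdgfrbGFP and 55.8 in cluster 7 of Cspg4dsRED, its 2 highest sums. Cluster 1 had 19.6 CPM in C57BL6, 50.6 in Cspg4dsRED (1 of 3 cells) and 8.30 in Acta2GFP. Cluster 7 had 0 in PdgfrbGFP and 29.7 in Acta2GFP, the latter at 5.26 CPM without its highest cell. Cluster 8 had 0.136, 0.593, 6.75 and 6.87 CPM in C57BL6, PdgfrbGFP, Cspg4dsRED and Acta2GFP, all below the sums of clusters 1 and 5. Single cells carried part of those sums. Without its highest cell, cluster 1 was at 3.74 CPM in C57BL6, 54.6 in PdgfrbGFP and 0.296 in Acta2GFP. Cluster 5 was then at 4.96 CPM in C57BL6 and 5.82 in PdgfrbGFP. Ranges of clusters that were neighbours in the order of means overlapped at every step.

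Gdf10 (BMP3B, chr14:33923587-33937983), an atypical ligand of the BMP3 branch, had its highest sum in cluster 8 of PdgfrbGFP, 198.03 CPM, with reads in 30.3% of its cells. The same cluster had 31.5 CPM in C57BL6, 0.149994 in Cspg4dsRED and 0.896 for Acta2GFP. In cluster 4 it stood at 35.6 CPM in C57BL6, 40.7 in PdgfrbGFP, 51.2 in Cspg4dsRED and 126.5 for Acta2GFP. The C57BL6 value split by plate into 60.1 CPM on one plate (69 cells) and 0 on the other (58 cells), with 72.4% of its reads from 1 cell. Cluster 2 had 5.39, 0.196, 1.97 and 8.80 CPM. The sums of clusters 3 to 5 had 56.3, 25.2, 42.98 and 111.6 CPM in the same strains, without overlap with cluster 2.

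**Figure D3:**
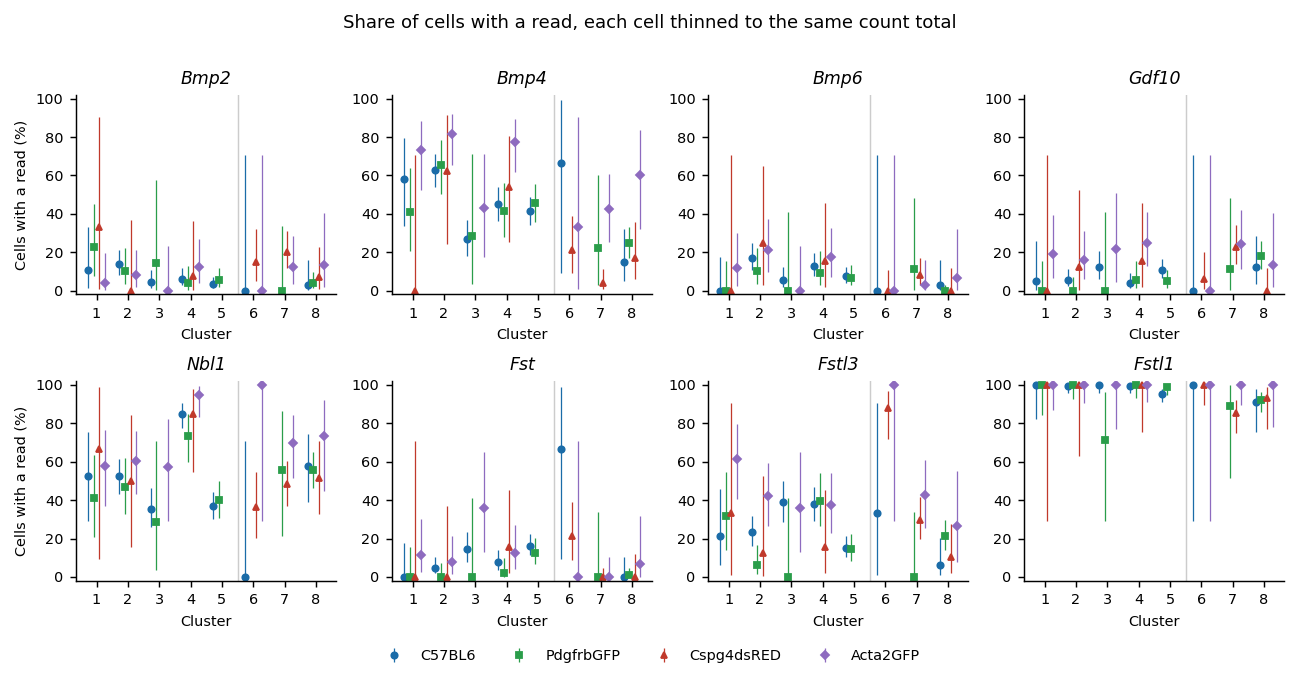
Percent of cells with at least 1 read after each cell was thinned to 50000 counts, by cluster and strain, with exact 95% binomial intervals that cover counting error only. Fstl1 was read in over 70% of cells in every sum, Nbl1 in 73.6% or more of cluster 4 cells in each strain, and Bmp2, Bmp6 and Gdf10 in under 35% throughout.

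Thinning put all cells on 50000 counts and left out 2 shallower cells. Acta2GFP cells had a median of 6388 genes against 3358 to 4265 in the other strains, while median counts per cell ranged from 245768 to 301141. The share of cells with a read fell from 62.5% to 42.1% for Bmp4, from 79.7% to 54.1% for Nbl1, from 46.1% to 27.6% for Fstl3 and from 21.6% to 10.5% for Gdf10. For Bmp4 the thinned share ranged over strains from 62.5% to 81.6% in cluster 2, from 41.5% to 77.5% in cluster 4, from 41.3% to 45.7% in cluster 5 and from 26.7% to 42.9% in cluster 3. Cluster 1 ranged from 0%, in the 3 Cspg4dsRED cells, to 73.1%. The mural ranges were 21.2% to 66.7% in cluster 6, 4.05% to 42.4% in cluster 7 and 15.2% to 60% in cluster 8. Those of clusters 7 and 8 lay below cluster 2 and overlapped with the ranges of clusters 1, 3, 4 and 5.

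Nbl1 (DAN, chr4:139082284-139092993), a founding member of the DAN family of BMP antagonists, separated cluster 4 from the other fibroblasts. Cluster 4 had 779 CPM in C57BL6, 742 in PdgfrbGFP, 576 in Cspg4dsRED and 569 for Acta2GFP (mean 666 ± 110, SD, n = 4). The sums of clusters 2, 3 and 5 had 169.1, 142.6, 240.9 and 110.9 CPM. No value of one side reached the other, and the 2 C57BL6 plates gave 818 and 722 CPM in cluster 4. The log2 fold change was 2.02 (SE 0.27), with an adjusted p of 0.0779 in edgeR that missed the threshold, and 4 of 10 alternatives called it (adjusted p 1.79e-08 to 0.539 over all 10). Cluster 8 followed with 413, 310, 406 and 558 CPM, a range that did not overlap with cluster 4, and cluster 7 with 143.8 to 330 CPM. Without the cell with the most reads, Acta2GFP was at 317 CPM in cluster 8 and PdgfrbGFP at 6.89 CPM in cluster 7. Cluster 6 had the lowest mean, with 1.96 CPM in C57BL6, 121.1 in Cspg4dsRED and 15.7 in Acta2GFP. Since high values stood on both sides, fibroblasts and mural cells hardly differed in the sum (322 ± 50.1 and 317 ± 69.5 CPM, SD, n = 4, log2 fold change 0.01, SE 0.26).

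Grem1 (Gremlin 1, chr2:113746164-113758646) binds BMP2 and BMP4 and is a marker of stromal cells in other organs. Its single read lay in a cluster 4 cell of Acta2GFP. A share of 1 in 1279 cells has an exact 95% interval of 0.00198% to 0.435%. None of 353 mural cells had a read, which allows a share of cells with a read of up to 0.850% (3 counts of 353 cells), for counting error only. Its promoter run above shares one motif match with that of Nbl1, the antagonist read in most cells.

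Fst (follistatin, chr13:114452290-114458951) neutralises activins and binds some BMPs. It was read in clusters 5 and 3, at 67.7 CPM in C57BL6 and 62.2 in PdgfrbGFP for cluster 5, and at 63.6 in C57BL6, 0 in PdgfrbGFP (7 cells) and 75.7 in Acta2GFP for cluster 3. Cluster 2 had 0.261 to 5.94 CPM and cluster 4 had 3.78 to 11.6. In mural cells it varied with strain, with 275.3 CPM in the 3 C57BL6 cells of cluster 6, 52.3 in 33 Cspg4dsRED cells and 0 in 3 Acta2GFP cells. Cluster 7 had at most 0.491 CPM. The 8 immediate early genes, known to rise during dissociation, also had their highest means in cluster 5 (20637 CPM) and cluster 3 (15457), and stood at 17326 CPM in the C57BL6 cells of cluster 6 (other strains 3674 and 4634). In Acta2GFP these genes were at 9790 CPM in cluster 3 (14 cells) and 9850 in cluster 2, where Fst was at 75.7 and 1.82 CPM. The 75.7 CPM was 41.1 CPM without the cell with the most Fst reads. In cluster 3 of PdgfrbGFP (7 cells) the immediate early genes were at 17590 CPM with Fst at 0. Their part in the Fst levels was not tested.

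Fstl3, a second activin and myostatin binder of the follistatin family, had its highest mean in cluster 6, with 536 CPM in Cspg4dsRED (30 of 33 cells) and 540 in Acta2GFP (3 of 3), but 12.7 in C57BL6. Cluster 1 ranged from 12.7 CPM in C57BL6 to 347 in PdgfrbGFP and cluster 4 from 38.4 to 225.4, and all neighbouring ranges overlapped. Its counts carry a limit. The last exon of Fstl3 (chr10:79777272-79782630, plus strand) shares 1157 bases with Prss57, a serine protease gene on the other strand. Prss57 had a read in 511 cells, 503 of which also had Fstl3, and exceeded Fstl3 in 15 cells. In cells with at least 50 Fstl3 reads, Prss57 held a median of 60.5% as many, and over cluster and strain sums the levels of the pair had r = 0.997 (27 sums). The strand setting of the counting was not stated, and from the counts alone reads in the shared bases cannot be assigned to one gene. Bmp4 overlaps Gm15217 by 89 bases and Gm15222 by 1764, whose counts came to 1.16% and 0.424% of those of Bmp4. Bmp6 shares bases with Txndc5 too, whose counts came to 2579% of those of Bmp6. Of the cells with Bmp6 reads, 5 had none of Txndc5, and 974 cells had Txndc5 reads without Bmp6.

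**Figure D4:**
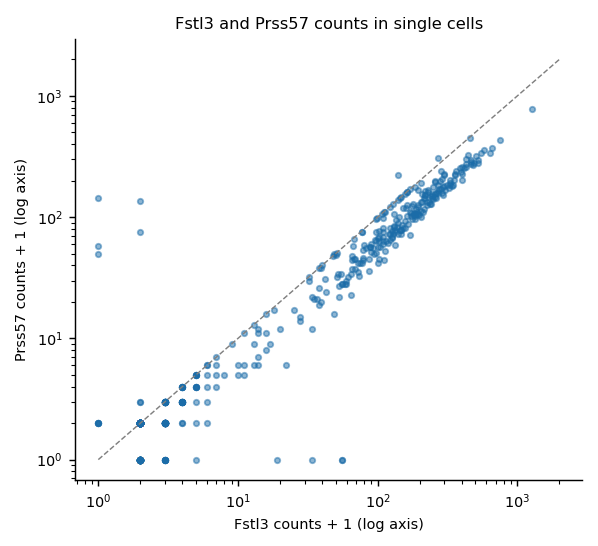
Counts + 1 of Prss57 against Fstl3 in each cell with a read of either gene, both on log axes, with the line of equality dashed. Most cells lie just under the line, and 15 cells lie above it.

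Fstl1 had the highest level per kilobase in most cluster and strain sums, and Nbl1 in the others. Per kilobase of exon, which allows genes to be compared, its level in cluster 4 was 583 ± 101.8 CPM per kb (SD, n = 4), followed by Nbl1 at 328 ± 54.04, Bmp4 at 120 ± 47.3 and Fstl3 at 52.8 ± 33.7, with Gdf10, Bmp6, Bmp2 and Fst at 12.2, 7.26, 2.87 and 1.65. In cluster 8 the means of Fstl1 and Nbl1 were nearly equal, at 208.3 ± 140.1 and 207.5 ± 50.3 CPM per kb (SD, n = 4), with Bmp4 at 31.4 and Fstl3 at 23.4. The strains were split there, since Nbl1 was above Fstl1 in C57BL6 (202.99 and 89.1 CPM per kb) and PdgfrbGFP (152.5 and 133.01) and below it in Cspg4dsRED (199.9 and 205.4) and Acta2GFP (274.4 and 405.7). Nbl1 was also above Fstl1 in cluster 7 of Acta2GFP (162.5 and 124.9 CPM per kb) and Cspg4dsRED (112.1 and 110.1). Within each strain, Fstl1 was highest in cluster 4, at 2177 CPM in C57BL6, 2817 in PdgfrbGFP, 3185 in Cspg4dsRED and 3280 for Acta2GFP. Cluster 7 had the lowest mean, with 1285, 541 and 614 CPM in PdgfrbGFP, Cspg4dsRED and Acta2GFP. Within cluster 8, Acta2GFP was highest for Fstl1 (1994 CPM, others 438 to 1009), as it was for Bmp4, and its fibroblast and smooth muscle marker levels given above were highest too. Any link between these levels was not tested.

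Among fibroblast clusters, no member passed in edgeR. For cluster 1 against clusters 2 to 5, 0 of 8 passed (1.33% of all genes). Bmp6 alone had an unadjusted p under 0.05 (8.87% of genes), and it was the member called by DESeq2 (5.3%) and by limma (2.36%), with a log2 fold change of -4.81 (SE 1.33, adjusted p = 0.133, edgeR). For cluster 2 against clusters 3 to 5, 0 of 8 passed and 0% of genes passed in edgeR or limma. Nbl1 (log2 fold change -1.40), Fst (-3.72) and Gdf10 (-3.82) had an unadjusted p under 0.05 (4.62% of genes), and DESeq2 called these 3 (1.29%). All 4 strains were lower in cluster 2 for each of them.

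Cluster 3 against clusters 2, 4 and 5 gave 0 of 8 in edgeR (0% of genes), in DESeq2 (2.71%) and in limma (0.0135%). Bmp4 (log2 fold change -1.95, SE 0.60) and Nbl1 (-0.94, SE 0.40) had an unadjusted p under 0.05 (6.05% of genes), both lower in 3 of 3 strains. Cluster 4 against clusters 2, 3 and 5 gave 0 of 8 in edgeR (0% of genes), 1 in DESeq2 (1.31%) and 1 in limma (0.106%), in both cases Nbl1. Besides Nbl1, Fstl1 (0.63, higher in 4 of 4 strains) and Fst (-1.87, lower in 4 of 4) were under the unadjusted threshold (4.75% of genes). Cluster 5 could be compared with clusters 2 to 4 in 2 strains only and gave 0 of 8 in edgeR (0% of genes) and limma (0%). DESeq2 called Nbl1 and Fstl3 (0.874% of genes). With Fst they made 3 members at an unadjusted p under 0.05 (3.89% of genes), Nbl1 at -1.57 (SE 0.23), Fstl3 at -1.79 (SE 0.30) and Fst at 2.56 (SE 0.92).

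Among mural clusters, 0 of 7 members passed for cluster 6 against clusters 7 and 8 (0.033% of genes in edgeR, 0.0413% in limma). The median of all genes lay at -0.32 on the log2 scale in this fit. Nbl1 (-2.90, SE 1.17), Fst (5.54, SE 2.40) and Fstl1 (1.18, SE 0.46) had an unadjusted p under 0.05 (5.74% of genes), and DESeq2 called Fst (2.99%), which was higher in cluster 6 in 2 of 3 strains. These fold changes moved with single strains. Without C57BL6, whose 3 cells stood apart, they were 3.08 (SE 2.75) for Fst, -2.25 for Nbl1 and 1.11 for Fstl1. Fst was at 9.34 without Acta2GFP and Nbl1 at -5.29 without Cspg4dsRED. For cluster 8 against cluster 7, 0 of 6 members passed (0.194% of genes in edgeR, 0.379% in limma), with the median of all genes at 0.18. Bmp4 had an unadjusted p under 0.05 (6.88% of genes) and was called by DESeq2 (3.44%). It was higher in cluster 8 in 3 of 3 strains, by a log2 fold change of 4.29 (SE 1.64, adjusted p = 0.534, edgeR).

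**Figure D5:**
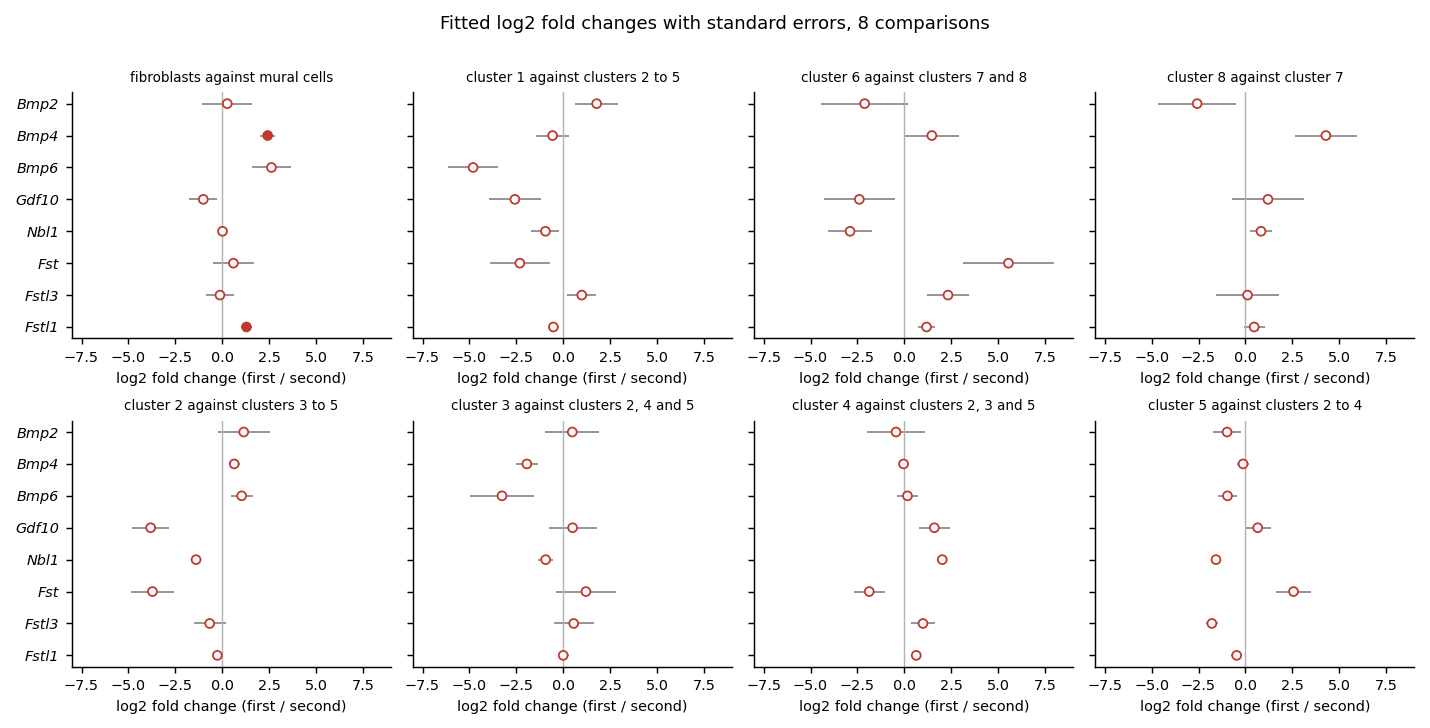
Log2 fold change of each member in the 8 comparisons, first side over second, with standard errors as lines (edgeR). Filled points, Bmp4 and Fstl1 between fibroblasts and mural cells, had an adjusted p under 0.05, and a member without a point did not pass the filter on low counts.

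Of 67 further genes of the BMP and activin pathway, 44 were tested between fibroblasts and mural cells and 3 passed, a share near the 5.93% of all genes. None of 8 SMADs and none of 8 target genes passed in either direction. Of the other ligands, 0 of 9 tested were higher and 1 was lower, Bmp5, at 1.21 ± 0.790 CPM in fibroblasts and 55.6 ± 20.5 in mural cells (SD, n = 4, log2 fold change -5.52, adjusted p = 0.00248). Of the other antagonists, 1 of 8 was higher, Bmper, a secreted BMP-binding protein, at 103.5 ± 18.8 against 0.919 ± 0.562 CPM (log2 fold change 6.81, adjusted p = 0.000461). Of the receptors and co-receptors, 1 of 11 was higher, the co-receptor Rgmb, at 165.01 ± 37.02 against 50.1 ± 9.14 CPM (1.69, adjusted p = 0.0079). Cluster 1 against clusters 2 to 5 gave 1 call among 37 tested (1.33% of all genes), the antagonist Chrdl1, at 157.8 ± 72.7 against 8.90 ± 7.48 CPM (4.15, adjusted p = 0.0396, all edgeR). The other 6 comparisons gave 0 calls among 34 to 42 tested, where at most 0.194% of all genes passed.

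The genes most like each member were ranked by the correlation of log2(CPM + 1) over the 27 sums, among 10327 genes, as a description. The sums share libraries and cell types. Bmp4 was nearest to Nnmt (r = 0.89), Rcn1 (0.83) and Ccn5 (0.83), and Bmp6 to Scara5 (0.87), Svep1 (0.86) and Ret (0.86). Fstl1 was nearest to Islr (0.78), Dclk1 (0.77) and Bmp1 (0.77). For Nbl1 they were Gm26596 (0.87), Rab5a (0.86) and Ltbr (0.85), and for Fst Nr4a3 (0.78), Plxna3 (0.75) and Napb (0.72). Gdf10 was nearest to Klhl42 (0.83), Mus81 (0.73) and Eefsec (0.72), and Bmp2 to B230118H07Rik (0.86), Epha7 (0.83) and Hemk1 (0.76). After Prss57, Fstl3 was nearest to Naglu (0.85) and Vars (0.76). Among the members themselves the highest values were 0.51 for Bmp4 with Bmp6 and 0.50 for Gdf10 with Nbl1.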

How the data were processed

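Raw read counts of 1279 heart cells were deposited as 1 table of genes by cells. The authors trimmed the reads, mapped them to GRCm38 (mm10) with TopHat2 and counted them per gene with featureCounts. They also removed doublets with samtools, and whether duplicate reads were meant, the annotation release and the strand setting are not given in the sources used here. The authors filtered cells on counts, genes, spike-in and mitochondrial content and assigned clusters with pagoda2. From the counts, 92 ERCC rows (1.82% of counts) were left out of totals. Totals per cell had a median of 274504. Genes were placed with GENCODE M21, promoter sequence came from RefSeq (GRCm38.p6), and exon length was the union of exons.

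For each side of a comparison the cells of a strain were added up (at least 3 cells), since cells are not replicates. The p-values measure the spread between strains only, and where a side held several clusters, strains differed in their mixture. Sums were tested with edgeR 4.0.16 (quasi-likelihood, TMM, filterByExpr with a minimum count of 10, R 4.3.3), with Benjamini-Hochberg adjustment over all genes at 0.05. DESeq2 1.42.0, limma 3.58.1 on log2(mean CPM per cell + 1), other filters, strain as a block and leaving out strains were alternatives. Same-strain sums deviated together between fibroblasts and mural cells (r = 0.14 to 0.21 over 9131 genes). Each strain's r was over 0.1, but the main fit held no block for strain. The block was run as an alternative only. No label names an animal, and the mural C57BL6 cells were all on 1 of that strain's plates. Intervals and limits cover counting error only, as several reads can stem from 1 molecule. In sums, fewer cells with a transcript and less of it per cell cannot be told apart. All 9 members were described. Of 67 pathway genes, at most the 3 called ones with the largest change were named per comparison. Like genes were the 3 with the highest Pearson r among genes of at least 10 CPM on average. Members and lists were chosen with earlier results of these data known.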

Additional observations from a re-analysis of the deposited data

Results flagged for a closer look

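The levels of 8 members in the 4 clusters with 4 strains gave 32 groups, and in 4 of them 1 strain lay far from the other 3 by Dixon's criterion on log2(CPM + 1), where chance flags about 1 in 20 groups. Bmp4 in cluster 1 was at 0 CPM in Cspg4dsRED (3 cells), with 213.1 to 264.6 CPM in the other strains. Acta2GFP stood above the other strains in the other three groups: Bmp6 in cluster 8 at 25.99 CPM (others 0 to 0.542), Fst in cluster 8 at 17.03 CPM (others 0 to 0.407) and Fst in cluster 1 at 16.6 CPM (others 0 to 0.169). The reads of these sums came from few cells, with 98.3% of the Bmp6 reads, 100% of the Fst reads in cluster 8 and 89.8% of those in cluster 1 from the highest cell.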

How the results depend on the processing

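All 19 fold changes with an unadjusted p under 0.05 kept their direction in every alternative that was run. The number of members called between fibroblasts and mural cells was 2, and 0 to 1 when 1 strain was left out. With the replicate block for strain it was also 2, and the block changed no other call of a member. Counts of members called rose from 0 with DESeq2 to 1 (cluster 1, cluster 4, cluster 6 and cluster 8 comparisons), 2 (cluster 5) and 3 (cluster 2). With limma the count was 1 for cluster 1 and 1 for cluster 4. Without a filter on low counts it was 1 for cluster 4 and 2 for cluster 5, and with the C57BL6 plates as separate units it was 1 for cluster 4. The cause of these differences was not tested. Among all genes, those called in the cluster 6 and cluster 8 comparisons and in the cluster 3 comparison were 0.033%, 0.194% and 0% without the block and 0.883%, 0.691% and 0.236% with it, whereas the block lowered the share from 1.33% to 0.742% for cluster 1 and from 5.93% to 4.81% between fibroblasts and mural cells. No plate split was run between fibroblasts and mural cells or within mural cells, because only 1 C57BL6 plate had at least 3 mural cells. Cluster 5 was compared in 2 strains, so leaving out a strain gave no fit. Thinning lowered the share of cells with a read for all 9 genes. Sums of 3 cells and sums carried by 1 cell set the limits of depth.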
